A study of Mus musculus with 9 samples.

Results

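Angiogenin and its relatives are small secreted enzymes of the RNase A superfamily, and 4 of them are described here: Ang, Ang3, Ang4 and Rnase4. They were taken by gene symbol from 23951 gene rows of 1 deposited table, and all 4 were found. The set was chosen by the FPKM values of Ang3, present in every WT library and at or near 0 in every null library, so Ang3 is given as a description with no test. The other 3 genes were included for their family. They were read in a fit over all genes, with earlier results of these data known.

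RNA was sequenced from 9 libraries of mouse mammary epithelial cells, sorted for a yellow fluorescent protein (YFP) reporter. All mice were female, of mixed genetic background, and carried the Rosa26-Stop-YFP (R26Y) reporter. All received the same Cre-expressing adenovirus (Ad-K8-Cre) into the mammary ducts, 1 month before sorting. The keratin 8 promoter, active in luminal cells, drove Cre, so labelling and deletion were aimed at luminal cells. The WT group had R26Y alone, the group labelled Trp53-null (here p53-null) also had Trp53L/L, and the group labelled Trp53-null/Brca1-null (here p53/Brca1-null) had Trp53L/L and Brca1L/L, with 3 libraries each. The labels give neither the age of the mice nor whether a group's libraries came from different mice. The p-values therefore reflect library-to-library spread, part of which may be technical.

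Angiogenin, the product of Ang, is known for stimulating blood vessel growth, for entering the nucleolus and raising ribosomal RNA transcription, and for cutting transfer RNAs in stressed cells. Its activity inside cells is held down by the ribonuclease inhibitor encoded by Rnh1, and plexin-B2 (Plxnb2) has been described as its receptor. Angiogenin and RNase 4 proteins are also found in milk. Mice carry several angiogenin copies: Ang3 is one of these, and Ang4 was described as an antimicrobial protein of Paneth cells in the gut. Rnase4 encodes a related ribonuclease that prefers uridine and shares its upstream promoters and leader exons with Ang.

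Close copies can trade reads, so the sequences come first. Coding sequences and transcripts were taken from GENCODE M21, and promoter windows from RefSeq with build GRCm38.p6, while the values were made on mm9. Among the 4 members, Ang, Ang4 and Rnase4 were matched and Ang3 was not, so the stretches Ang3 shares with other copies were not analysed here. The stretch of 90 coding bases in which 5 angiogenin genes are most alike shows how little separates them. Capitals mark bases that differ from Ang4, and the numbers of such bases were 4 in Ang5, 5 in Ang6, 9 in Ang2 and 14 in Ang.
Ang4: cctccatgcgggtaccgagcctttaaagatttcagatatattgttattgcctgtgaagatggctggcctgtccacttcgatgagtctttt
Ang5: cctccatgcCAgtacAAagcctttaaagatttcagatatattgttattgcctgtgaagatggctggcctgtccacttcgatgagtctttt
Ang6: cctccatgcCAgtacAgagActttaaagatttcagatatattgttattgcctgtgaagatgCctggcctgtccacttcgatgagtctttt
Ang2: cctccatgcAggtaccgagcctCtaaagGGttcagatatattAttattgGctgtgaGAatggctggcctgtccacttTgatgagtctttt
Ang: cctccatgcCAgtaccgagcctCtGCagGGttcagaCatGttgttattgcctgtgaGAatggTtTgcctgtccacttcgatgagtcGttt

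Over the whole coding sequence, Ang4 was 88.0% identical to Ang5, 87.4% to Ang2, 85.0% to Ang6 and 84.8% to Ang. Rnase4 was far from these copies, with 52.4% to 55.8% identity. The longest identical coding run was 79 bases, between Ang4 and Ang5, against 41 bases between Ang4 and Ang6 and 12 between Ang and Rnase4. A read that lies wholly within such a run cannot be assigned to 1 gene by its sequence. The read length is not given in the sources used here, so stretches of 25 and 50 bases were counted against the other 5 of these 6 genes and 3 angiogenin pseudogenes. Of the 50-base stretches in Ang4 transcripts, 31 of 660 (4.70%) also occurred in another of these genes. At 25 bases the share was 158 of 685 (23.1%). For Ang6 it was 0 of 395 at 50 bases and 79 of 420 (18.8%) at 25 bases. Ang shared 167 of 1152 stretches of 50 bases (14.5%), and 123 of these were shared with Rnase4. All 123 stretches that Rnase4 shared at this length were shared with Ang. The coding run they have in common is only 12 bases, so these stretches cannot lie within both coding sequences.

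**Figure D1:**
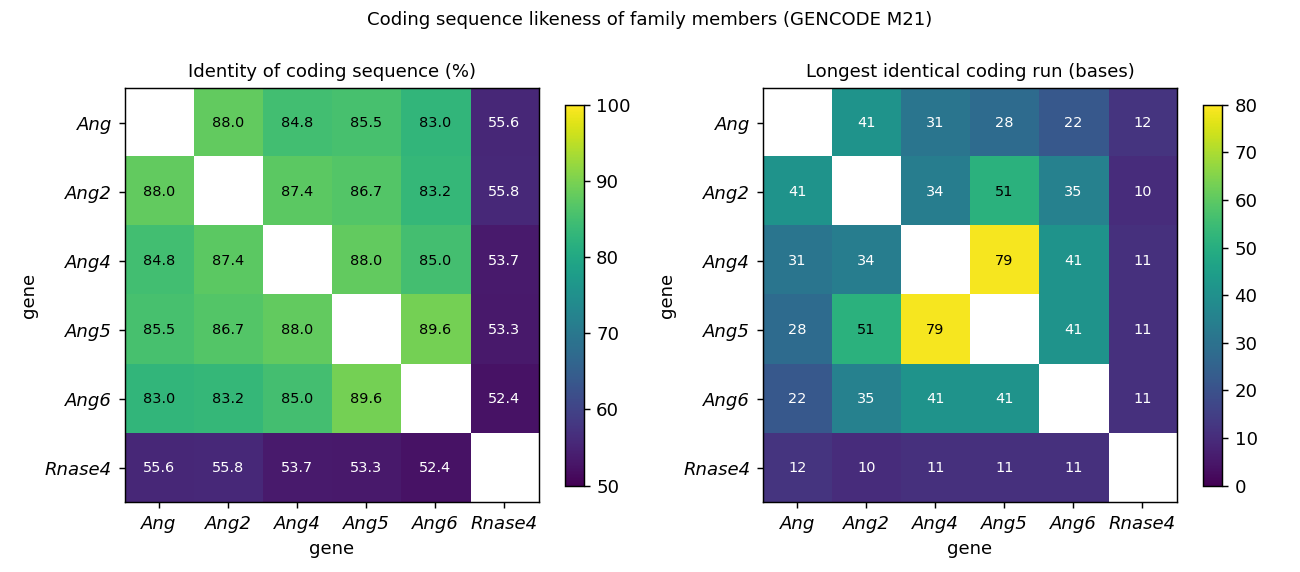
Likeness of coding sequences between 5 angiogenin genes and Rnase4. The left panel gives percent identity and the right panel the longest identical run in bases, with both axes listing genes. Rnase4 stands apart at 52.4% to 55.8%, and the longest run is the 79 bases of Ang4 and Ang5.

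Each promoter window holds the 250 bases before an annotated start, printed 5′ to 3′ on the gene's strand, with the letters TATATA in capitals. They are shown because some of these genes have a window in common. The window of Ang4 lies on the minus strand at chr14:51773591-51773840 and that of Ang6 on the minus strand at chr14:44006419-44006668. The window of Ang5 (plus strand, chr14:43956819-43957068) has the same 250 bases as that of Ang6. One window, on the plus strand at chr14:51090827-51091076, is listed for both Ang and Rnase4.
Ang4: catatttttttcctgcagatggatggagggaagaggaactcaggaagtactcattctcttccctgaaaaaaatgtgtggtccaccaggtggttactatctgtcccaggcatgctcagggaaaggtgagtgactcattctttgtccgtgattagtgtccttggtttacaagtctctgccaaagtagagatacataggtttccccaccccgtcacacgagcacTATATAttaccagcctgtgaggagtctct
Ang6: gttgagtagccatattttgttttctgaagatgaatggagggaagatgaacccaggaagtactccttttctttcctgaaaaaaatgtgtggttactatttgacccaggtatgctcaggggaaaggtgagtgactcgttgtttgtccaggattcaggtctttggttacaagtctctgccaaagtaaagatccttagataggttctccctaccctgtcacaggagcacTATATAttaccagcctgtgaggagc
Ang and Rnase4: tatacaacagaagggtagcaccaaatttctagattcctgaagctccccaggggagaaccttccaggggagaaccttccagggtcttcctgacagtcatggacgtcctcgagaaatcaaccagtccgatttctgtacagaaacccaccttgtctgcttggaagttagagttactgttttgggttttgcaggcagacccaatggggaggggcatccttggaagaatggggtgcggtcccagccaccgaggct

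Aligned end to end, the windows of Ang4 and Ang6 were 78.3% identical, and those of Ang4 and Ang 44.6%. The letters TATATA, which read the same on both strands, begin at position -29 in Ang4 and at -25 in Ang5 and Ang6, counted back from the start. They are not in the shared window of Ang and Rnase4, and a further Rnase4 window has them at -90. Of 32536 distinct windows of this length in the RefSeq table, 5.01% hold them. The p53 half-site was searched by its usual consensus on both strands. It matched once in the Ang4 window, first base at -145, and nowhere in the other windows of Ang, Ang5, Ang6 and Rnase4, including the further Rnase4 window, and 7.12% of all windows hold a match.

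The values are FPKM (fragments per kilobase of transcript, scaled to the fragments of the library), a scale on which levels of different genes can be set side by side. The summed FPKM of a library lay between 359976 and 433880, and 4839 to 9767 genes reached 1 FPKM, fewest in WT replicate 1. The most common low value, sought within a preset range, put 1 fragment on a transcript of 1 kb at 0.0359 to 0.0513 FPKM. This rests on 35 to 96 long genes per library with GENCODE M21 lengths, and the preset range limits it, so numbers of fragments below are rough. Krt18, a luminal keratin gene, stood between 1460 and 6009 FPKM in every library. Immune transcripts were also present, with Cd74, the MHC class II invariant chain, between 859 and 4427 FPKM. The targeted genes did not check the labels, since Trp53 ranged from 1.35 to 25.5 FPKM in WT, from 0.858 to 55.7 in p53-null and from 1.88 to 26.5 in p53/Brca1-null, and Brca1 was at 0 in 8 libraries and at 0.00559 FPKM in the other. Genotypes are therefore named as labelled.

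Ang3 had 73.3, 10.7 and 17.0 FPKM in WT replicates 1 to 3. In p53-null it had 0.00118 FPKM in replicate 1 and was listed at 0 in replicates 2 and 3, and every p53/Brca1-null library had it listed at 0. The WT and null libraries do not overlap, and WT replicate 1 held several times the level of the other WT libraries. In fragments per kilobase of transcript the WT values came to 1429, 288 and 428, and the single value above 0 in p53-null to 0.0304, less than 1 fragment on a transcript of 1 kb. Ang3 exceeded 96.1%, 85.5% and 88.8% of all gene rows in the WT libraries.

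Ang4 followed the same division at a lower level. It had 20.8, 6.01 and 6.55 FPKM in WT libraries, 0.885, 0 and 0 in p53-null, and 0 in each p53/Brca1-null library. Again WT replicate 1 was highest and the groups did not overlap. The value in p53-null replicate 1 came to 22.7 fragments per kilobase, so Ang4 was not at 0 there. Tests were run on the 9503 genes that reached 1 FPKM in 3 or more libraries. Of these, 2.16% lay lower in all p53-null than in all WT libraries, 3.83% lower in all p53/Brca1-null than in all WT libraries, and 0.905% lower in all 6 null libraries. Ang4 met that filter only through its 3 WT libraries, so it had to differ and no test of it is given.

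Other angiogenin copies, which are no members of the set, were also highest in WT in 2 cases. Ang6 had 5.91, 1.35 and 1.41 FPKM in WT and was listed at 0 in all 6 null libraries. Ang2 had 0.922, 0.371 and 0.614 FPKM in WT and was also listed at 0 in every null library. Ang5 was the exception: it stood between 0.00203 and 0.00285 FPKM in WT, less than 1 fragment, and at 0.0707 FPKM in p53-null replicate 1, or 1.82 fragments per kilobase. That library is also the one that kept some Ang4, the gene with which Ang5 shares its 79-base run. Among the WT libraries, Ang3 stood at 3.52, 1.78 and 2.59 times Ang4, and Ang4 at 3.52, 4.44 and 4.64 times Ang6. The ratio of Ang3 to Ang2 varied more, at 79.4, 28.8 and 27.6. Ang3 made up 72.3%, 57.5% and 66.4% of the summed FPKM of the 6 angiogenin genes in WT. How far these levels come from shared reads was not tested.

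**Figure D2:**
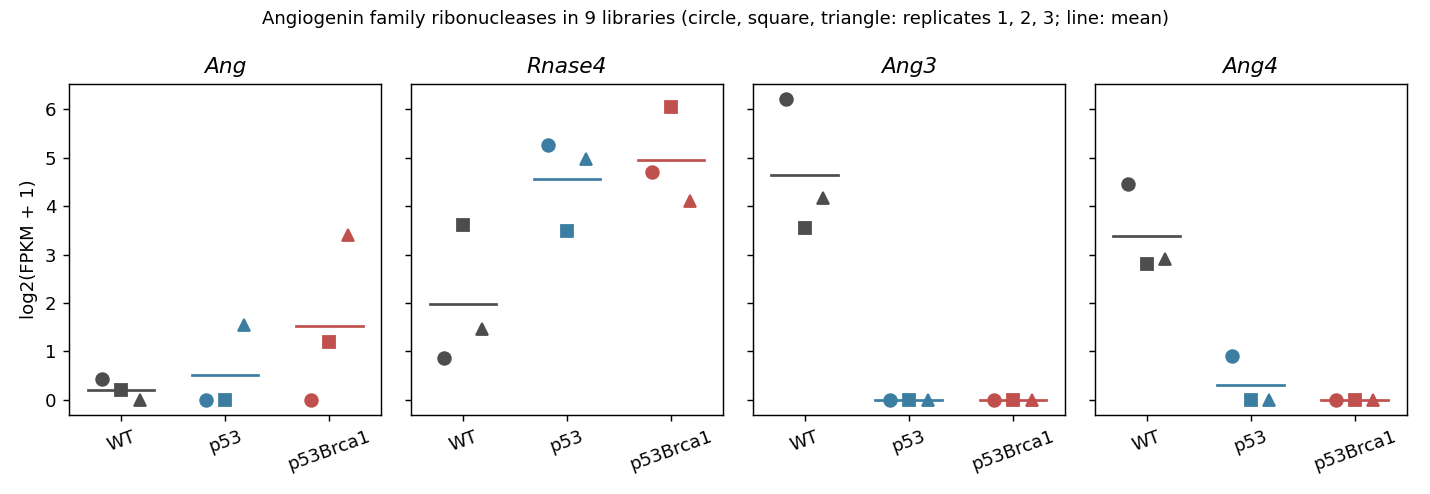
Levels of the 4 members in each library, as log2(FPKM + 1), by genotype label. Points are libraries, with circles, squares and triangles for replicates 1, 2 and 3, and lines are means. Ang3 and Ang4 lie above 0 in all WT libraries and, except for Ang4 in p53-null replicate 1, on the zero line in the null libraries, while Rnase4 lies higher in most null libraries.

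The symbols themselves need care, since Ang3 is also an older name of Angpt4 and Ang2 of Angpt2, which are angiopoietins and no ribonucleases. Both angiopoietins had rows of their own. Angpt4 was listed at 0 in all 9 libraries. Angpt2 was listed at 0 in WT and reached 10.2 FPKM in p53/Brca1-null replicate 2. The rows named Ang3 and Ang2 therefore did not repeat them.

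Ang, the founding angiogenin, did not follow Ang3. It had 0.345, 0.154 and 0 FPKM in WT. In p53-null it had 5.72e-171, 2.91e-136 and 1.91 FPKM, and in p53/Brca1-null 1.7e-113, 1.30 and 9.59. The highest values were in p53/Brca1-null replicate 3 and p53-null replicate 3, and the groups overlapped. The 3 minute values are far below the worth of 1 fragment, and each library held 25 to 59 values above 0 but under 1e-06 FPKM. In p53-null replicates 1 and 2 and p53/Brca1-null replicate 1, which held them, Rnase4 had 37.3, 10.2 and 24.99 FPKM. Whether reads of Ang were given to Rnase4 there was not tested. Ang reached 1 FPKM only in 3 null libraries, so the filter on low values favoured a difference upward from WT. Against WT, its difference on the log2(FPKM + 1) scale was 0.30 ± 0.81 in p53-null (limma, adjusted p = 0.916 by the Benjamini-Hochberg method over all genes tested). It was 1.32 ± 0.81 in p53/Brca1-null (adjusted p = 0.515 by limma). Between the null groups it was 1.02 ± 0.81 (adjusted p = 0.999 by limma), where 0% of genes were called. The comparisons with WT called 0.0105% of genes for p53-null and 0.253% for p53/Brca1-null, the latter being 0.221% higher and 0.0316% lower, at an adjusted p of 0.05. Both use the same WT libraries. For p53-null against WT its sign turned with quantile normalization (-0.57). The summed level of 10 luminal progenitor and milk genes was also highest in the libraries with Ang above 1 FPKM. It was 275, 807 and 391 FPKM in WT, then 317, 244 and 1415 in p53-null. Among p53/Brca1-null libraries it was 888, 4009 and 6864. The listed genes did not move as one. Csn2 reached 3753 FPKM among p53/Brca1-null libraries, while Kit stayed at or below 0.411 FPKM in every library. Lalba had a mean of 54.3 FPKM in WT, a lower one of 2.89 in p53-null and 128 for p53/Brca1-null. The part of cells expressing these genes in the level of Ang was not tested.

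Rnase4 was the one member found in all 9 libraries. It had 0.828, 11.2 and 1.77 FPKM in WT libraries, 37.3, 10.2 and 30.2 in p53-null, and 24.99, 64.5 and 16.2 in p53/Brca1-null. WT replicate 2 lay above p53-null replicate 2, so WT and p53-null overlapped, while all p53/Brca1-null libraries lay above all WT libraries. Such a separation was found for 12.7% of the genes tested, and 14.1% had one between p53-null and WT. Rnase4 was not among the 5.84% of genes lower in all WT than in all 6 null libraries. Its ranges in the null groups also overlapped, while 4.87% of genes were higher and 8.02% lower in all p53/Brca1-null than in all p53-null libraries. The mean was 4.59 ± 5.71 FPKM (SD, n = 3) in WT, 25.9 ± 14.1 in p53-null and 35.2 ± 25.7 in the p53/Brca1-null group.

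The log2 difference of Rnase4 was 2.59 ± 1.01 (SE) between p53-null and WT (adjusted p = 0.331 by limma). Between p53/Brca1-null and WT it was 2.96 ± 1.01 (adjusted p = 0.242 by limma), and between the null groups 0.38 ± 1.01 (adjusted p = 0.999 by limma). None passed the threshold. All genes tested leaned the same way, with median log2 differences from WT of 0.58 and 0.41, which fell to -0.04 in both comparisons with quantile normalization. Rnase4 then stood at 1.75 and 2.28. The order of Rnase4 among the WT libraries was that of their number of detected genes (4839, 7320 and 6105), and it was not in p53-null (6286, 9146 and 9767) or in p53/Brca1-null (7332, 8213 and 7473). The part of detection in its level was not tested.

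**Figure D3:**
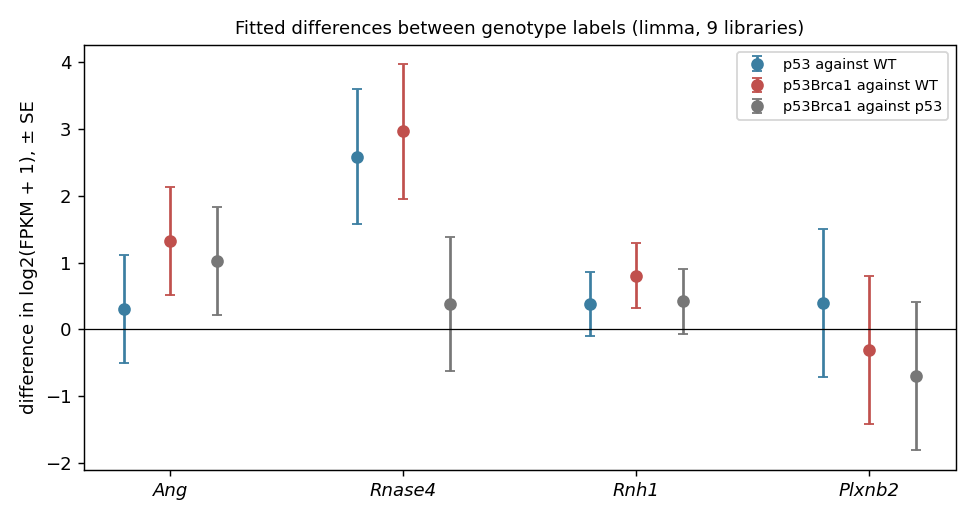
Fitted differences in log2(FPKM + 1) between genotype labels, with SE bars, for Ang, Rnase4, Rnh1 and Plxnb2. Each color is 1 comparison. Rnase4 lies above 0 in both comparisons with WT, at 2.59 and 2.96, and none of the differences passed the adjusted threshold.

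The copies can also be read as a sum. The summed FPKM of the 6 angiogenin genes was 101.3, 18.6 and 25.5 in WT. It was 0.957, 2.91e-136 and 1.91 in p53-null and 1.7e-113, 1.30 and 9.59 in p53/Brca1-null. With Rnase4 added, the sums were 102.1, 29.7 and 27.3 in WT, 38.3, 10.2 and 32.1 in p53-null, and 24.99, 65.8 and 25.8 in p53/Brca1-null, and the groups overlapped. Ang3 and Ang4 made up most of every WT sum, and Rnase4 was a large part in WT replicate 2. Rnase4 made up most of every null sum. Over the 9 libraries the Pearson correlation of log2(FPKM + 1) was -0.87 between Ang3 and Rnase4 and 0.25 between Ang and Rnase4, 2 genes with a promoter window in common. These values describe 9 points that share the WT and null division.

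**Figure D4:**
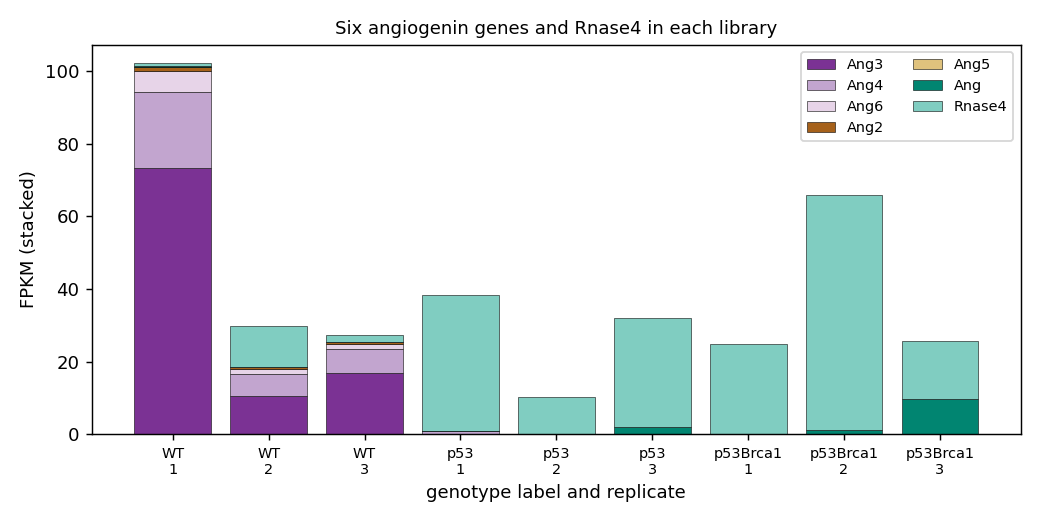
Stacked FPKM of 6 angiogenin genes and Rnase4 in each library, by genotype label and replicate. WT bars are mostly Ang3 and Ang4, with a large Rnase4 share in WT replicate 2, and bars of the null libraries are mostly Rnase4.

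By the same correlation, genes among the tested ones most like Ang3 were Col12a1 (r = 0.99), a fibril-associated collagen, Ang4 (0.98), Ang6 (0.98) and Mga (0.94), a MYC-network transcription factor. Col12a1 had 5.41, 2.79 and 2.82 FPKM in WT and 0 to 0.301 in the null libraries. Genes at 1 FPKM or more in all 3 WT libraries and under 1 FPKM in all 6 null libraries numbered 6 of 9503 (0.0631%), a count that includes Ang3, chosen by this pattern. They were Ang3, Ang4, Ang6, Col12a1, Hc, which encodes complement C5, and Rrm2b, the p53-inducible ribonucleotide reductase subunit. The last 2 were named after their values were seen. Rrm2b had 1.41, 3.88 and 2.99 FPKM in WT, 0 to 0.468 in p53-null and 0.00805 to 0.986 in p53/Brca1-null. Ang4 and Ang6 among them are 85.0% identical in coding sequence, so the count may not stand for 6 separate genes.

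The genes most like Ang were Hpgd (r = 0.99), which breaks down prostaglandins, Arhgap22 (0.99), BC117090 (0.98), BC100530 (0.96) and the leukocyte gene Ptprcap (0.96). They were highest in p53/Brca1-null replicate 3, where BC100530 had 67.2 FPKM and Ptprcap 34.8. The genes most like Rnase4 were Mnda (r = 0.98), an interferon-inducible nuclear protein, Rrs1 (0.97), a ribosome assembly factor, Gm5801 (0.96), Mcts1 (0.96), a translation re-initiation factor, and Tfe3 (0.96), a lysosomal transcription factor. These r are the highest among 9503 genes over 9 libraries and are descriptions only.

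Of further relatives in the RNase A superfamily, without Rnase4 and the angiogenins, 17 were in the table, and 10 of them were listed at 0 in every library, among them Rnase9 to Rnase13 and Ear6. Another 5 were listed at 0 in all WT libraries and above 0 in a null library: Rnase2a, Ear1, Ear2, Ear3 and Ear10, relatives of the eosinophil ribonucleases. Of all 23951 genes, 14.7% were at 0 in WT and above 0 in a null library, or 22.7% of the 15457 genes above 0 in any library. Ear2 was at 0 in WT and had 0.778, 2.10 and 1.73 FPKM in p53-null and 0, 6.13 and 10.7 in p53/Brca1-null. It met the filter only through null libraries, so no test of it is given. Ear10 had 0.777 FPKM in p53-null replicate 3 and 1.18 and 2.56 in p53/Brca1-null replicates 2 and 3, the libraries in which Ang was also highest, and the correlation of Ear10 with Ang was 0.96 over 9 libraries. In the RefSeq annotation of GRCm38.p6 Ear1, Ear10 and Ear2 lie in 1 cluster with Ang5 and Ang6.

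**Figure D5:**
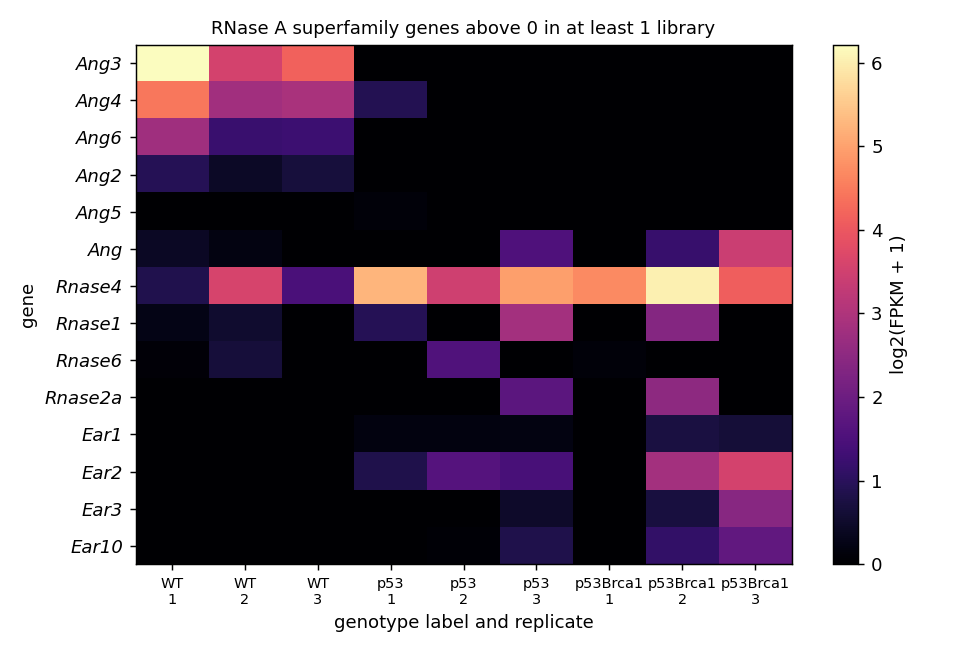
Level, as log2(FPKM + 1), of the RNase A superfamily genes with a value above 0 in at least 1 library, with genes as rows and libraries as columns. Ang3, Ang4, Ang6 and Ang2 are above 0 in WT, and Ear1, Ear2, Ear3, Ear10 and Rnase2a only in null libraries.

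Named after their values were seen, 3 genes that flank the larger cluster of RNase genes had WT and null values that overlapped. Pnp, a purine nucleoside phosphorylase, had 23.5 to 52.8 FPKM in WT, 19.4 to 42.5 in p53-null and 28.9 to 61.3 in p53/Brca1-null. Hnrnpc, an RNA-binding protein gene on the other side, had 90.6 to 140.5, 95.4 to 107.7 and 54.9 to 98.1 FPKM. The DNA repair gene Apex1 had 0.344, 3.30 and 46.1 FPKM in WT, 16.9 to 31.6 in p53-null and 5.78 to 20.1 in p53/Brca1-null, so its groups overlapped.

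Neither the inhibitor nor the receptor passed the test. Rnh1 had 154, 180 and 104 FPKM in WT libraries, 86.3, 282 and 262 in p53-null, and 264, 258 and 227 in p53/Brca1-null. Its level was above that of any angiogenin gene in every library, WT and null alike. Its log2 difference from WT was 0.38 ± 0.48 in p53-null (adjusted p = 0.789 by limma) and 0.80 ± 0.48 in p53/Brca1-null (adjusted p = 0.511). Plxnb2 had 6.62, 19.8 and 0.670 FPKM in WT, 5.74 to 10.8 in p53-null and 0.781 to 9.82 in p53/Brca1-null, and the groups overlapped (adjusted p = 0.919 and 0.935 by limma against WT).

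Of 12 genes listed as partners or substrates of angiogenin action, 10 were tested and 0 were called in each of the 3 comparisons by limma, with 2, 1 and 0 at an unadjusted p under 0.05. Of all genes tested, 11.7%, 12.2% and 4.74% had such a p. Their median log2 differences were 0.45, 0.23 and -0.28, against 0.58, 0.41 and -0.16 for all genes tested. Polr1c, a shared subunit of RNA polymerases I and III, had 0, 0 and 0.0337 FPKM in WT, 23.2 to 51.8 in p53-null and 12.4 to 15.6 in p53/Brca1-null. It met the filter only through null libraries, so it had to differ. Polr1c was 1 of the 2 genes counted above for p53-null and the only 1 for p53/Brca1-null. The largest subunit of polymerase I, Polr1a, had 49.5, 2.84 and 0.00627 FPKM in WT and 0 to 3.38 in the null libraries. Ybx1, which binds tRNA fragments, had 94.3 to 147.8 FPKM in WT, 157 to 179 in p53-null and 177 to 247 in p53/Brca1-null. The tRNA methyltransferase gene Nsun2 had 4.37 to 22.0, 12.5 to 35.5 and 8.80 to 29.8 FPKM, while Trdmt1 was listed at 0 throughout. Of 15 other RNA-degrading enzymes, 14 were tested and 0 were called, with 2, 3 and 1 at an unadjusted p under 0.05, against the same shares of all genes. The 3 highest were Rnasek, Rnaset2a and Rnaseh2c. Rnasek had 193 to 420 FPKM in WT, 128 to 137 in p53-null and 120 to 307 in p53/Brca1-null. Rnaset2a had 54.0 to 121.8, 83.5 to 134.7 and 125 to 198 FPKM.

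Markers of cell types moved with some libraries. In bulk samples, fewer cells of a type and less RNA per cell cannot be told apart. Within the luminal cells, 11 hormone-sensing genes summed to 656, 996 and 607 FPKM in WT libraries. The sums were 402, 911 and 695 in p53-null and lower than every WT value in p53/Brca1-null, at 396, 247 and 245. Greb1 was at 0 in both null groups and at 0 to 0.924 FPKM in WT. All p53/Brca1-null libraries had Ang3 and Ang4 at 0. So did p53-null replicates 2 and 3, whose sums of 911 and 695 lay within the WT range. Wnt4, a signal made by hormone-sensing cells, had 38.6, 25.7 and 15.1 FPKM in WT libraries and 0.0959 to 13.7 in the null libraries, so it too separated WT from all 6. The prolactin receptor gene Prlr had 78.8 to 363 FPKM in WT, 121 to 323 in p53-null and 12.9 to 43.6 in p53/Brca1-null. Other genes of this list differed from these. Cited1 overlapped across groups, at 76.2 to 394 FPKM for WT, 73.2 to 317 for p53-null and 51.0 to 234 for p53/Brca1-null. Esr1 had 0 to 0.158 FPKM in WT, and every p53-null library was higher, at 0.508 to 3.38. It met the filter only through null libraries. Of 9 tested genes of this list, 6 had a positive log2 difference from WT for p53-null, against 3 for p53/Brca1-null. The part of hormone-sensing cells in the levels of Ang3 and Ang4 was not tested. The summed level of 14 immune genes was 6412, 2750 and 8091 FPKM in WT libraries, 2952, 4511 and 6419 in p53-null, and 8995, 14486 and 14389 in p53/Brca1-null, with Cd79a at 0 in WT. It was highest in p53/Brca1-null replicates 2 and 3, which also had the highest Ear2, while replicate 1 of that group, at 8995, had no Ear2 and an Ang of 1.7e-113. The 9 adipocyte genes summed to 1102, 150 and 1623 FPKM in WT libraries, 5301, 654 and 902 in p53-null, and 333, 1467 and 581 in p53/Brca1-null. Fabp4 made up most of each sum, at 120 to 1566 FPKM in WT, 589 to 5145 in p53-null and 290 to 1365 in p53/Brca1-null. Plin1 and Lep were at 0 in every library, and Adipoq was at 0 in WT and p53-null. The 11 endothelial genes summed to 138, 2.19 and 164 FPKM in WT libraries, 624, 35.4 and 130 in p53-null, and 76.6, 206 and 59.0 in p53/Brca1-null, with Kdr at 0 in WT and p53/Brca1-null. Fibroblast genes, 10 in all, summed to 257, 71.9 and 110 FPKM in WT libraries, 136, 123 and 94.0 in p53-null, and 62.4, 514 and 85.6 in p53/Brca1-null. Of 7 Paneth and goblet cell genes, Mmp7 and Tff3 were at 0 in every library, and Lyz1 had 35.8 to 301 FPKM in WT, 28.7 to 96.9 in p53-null and 122 to 330 in p53/Brca1-null. The part of any of these cells in the levels of Ang, Ear2 and Rnase4 was not tested.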

How the data were processed

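The authors deposited 1 table of FPKM values for the 9 libraries, and the unit was inferred from the values, since the file header names none. Per the submitters' processing notes the build was mm9, and Trizol extraction and a SMARTer low-input mRNA kit (v4) were used, per the labels. The aligner was not given in the sources used here, nor were quantifier and annotation.

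The 92 spike-in rows (1 above 0) were left out of 24043. Genes reaching 1 FPKM in 3 or more libraries were tested on log2(FPKM + 1) with limma 3.58.1 in R 4.3.3, with 1 coefficient per genotype, 6 residual degrees of freedom, trend and robust moderation, and calls at a Benjamini-Hochberg adjusted p of 0.05. The fit was also run on simulated normal values, with those below 0 set to 0. They may not copy the skew of low genes, and the outcome is not reported here. The planned tests of Ang4 are not given, because it passed the filter only through WT. Fold changes of low genes are understated on this scale. Exact zeros can be failed estimates, so such genes are given library by library.

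Members and lists were chosen with earlier results of these data known. Named were the members, the RNase A and partner lists, the 3 highest RNA-degrading enzymes, the 5 tested genes most correlated with Ang3, Ang and Rnase4 (1 of those for Ang3 is not reported here), and high genes of cell type lists. Flanking genes, Hc, Rrm2b, Wnt4, Esr1 and Ptprc were added after their values were seen. Alternatives were a pseudocount of 0.1, no filter, a filter of 5 FPKM, quantile normalization, a replicate block, only the 6 libraries compared, no intensity trend, and each library left out. Sequences were compared with Biopython 1.88.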

Additional observations from a re-analysis of the deposited data

How the results depend on the processing

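Neither Ang nor Rnase4 passed in any setting and comparison that gave a value. Ang gave none where too few libraries remained above the filter. The log2 difference of Rnase4 from WT lay, over 16 other settings, between 1.75 and 3.40 in p53-null and between 2.28 and 3.78 in p53/Brca1-null. Signs turned for Ang in p53-null against WT with quantile normalization (-0.57), and between the null groups for Rnase4 without p53-null replicate 2 (-0.17) or p53/Brca1-null replicate 2 (-0.17) and for Rnh1 without p53-null replicate 1 (-0.13). With 1 library left out, these ranged up to 0.80 for Rnase4 and 0.72 for Rnh1. The cause was not tested.

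Counts of called genes moved more. For p53-null against WT the count of 1 became 17 with a pseudocount of 0.1, 0 with only the 6 libraries compared and 22 without the intensity trend, and it ranged from 0 (without p53-null replicate 1 or 3) to 8 (without WT replicate 3) with 1 library left out, with 2 and 5 without WT replicates 1 and 2. For p53/Brca1-null against WT the count of 24 became 56 with the pseudocount, 45 with quantile normalization, 7 with only the 6 libraries, 50 without the trend, and 3 (without p53/Brca1-null replicate 2) to 73 (without WT replicate 3) with 1 library left out. It was 6 and 7 without p53/Brca1-null replicates 1 and 3, and 8 and 12 without p53-null replicates 2 and 3. Between the null groups the count of 0, with 450 genes at an unadjusted p under 0.05 by limma, became 1 with only the 6 libraries. Among the partners and substrates, the count of 0 for p53-null against WT became 1 with a pseudocount of 0.1, without the intensity trend and without WT replicate 3. The gene was Polr1c, which had to differ. For p53/Brca1-null against WT, Polr1c passed in 2 of 16 other settings.

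The replicate numbers are only names: same-numbered libraries had correlations of deviations from -0.08 to 0.06. With the number as a replicate block, 14 genes were called for p53/Brca1-null against WT and neither Ang nor Rnase4 was called.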
